A study of Mus musculus with 6 samples.

Results

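Of the 1414 rows in the table of pancreatic small RNAs, 310 carried identifiers that mark them as predicted miRNA arms, and the 71 of these with at least 30 counts summed over the 6 libraries are described here. These members were selected on their total counts, over control and model together and not on the difference between the groups. The 71 rows held 99.2% of all counts in predicted rows, and the other 239 rows shared 1418 counts. The table's identifiers for these rows share a prefix that is left out here, so each is written as "predicted miR" with the table's own number and arm. Those numbers are unrelated to the numbers of known miRNAs: predicted miR142-3p is not the leukocyte miRNA miR-142a-3p.

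A miRNA is cut from a hairpin precursor by Drosha and Dicer, and its seed, bases 2 to 8 from the 5′ end, selects the target mRNAs. Prediction programs look for small reads that lie in a genomic stretch able to fold into such a hairpin. Other abundant RNAs also leave short pieces in a small RNA library. Transfer RNAs (tRNAs) receive the bases CCA at their 3′ end after transcription, so a piece of the 3′ end of a mature tRNA ends in CCA. Small nucleolar RNAs (snoRNAs), which guide the modification of ribosomal RNA or, as U3, take part in its processing, are cut into short pieces as well, some of them through Dicer.

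The study compared pancreas from wild-type C57BL/6 mice of 22 to 25 g, and their age was not stated. The 3 control libraries, numbered 43, 44 and 45, came from mice given saline, and the 3 model libraries, numbered 56, 57 and 59, from mice given caerulein and, with the last dose, lipopolysaccharide (LPS). Caerulein is a cholecystokinin analogue that overstimulates acinar cells, and LPS is a component of the outer membrane of Gram-negative bacteria. Each mouse had 7 intraperitoneal injections 1 hour apart, the caerulein at a stated 50 mg/kg, and tissue was collected 24 hours after the start. The labels do not say that each library is its own mouse, so the p-values measure only the spread between libraries, which may be technical.

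Library totals over the table ran from 1943693 to 3006220 counts. The table held 7.17 to 9.43% of the authors' own library totals in control and 10.2 to 13.6% in model, with no overlap between the groups. The acinar miRNAs miR-216a-5p, miR-216b-5p, miR-217-5p and miR-148a-3p and the islet miRNAs miR-375-3p and miR-7a-5p were abundant in every library. Of 3 leukocyte markers, miR-223-3p was at 246 to 471 CPM in control and 2121 to 2232 CPM in model, miR-142a-3p was also higher in every model library, and miR-150-5p overlapped. Their summed level overlapped, at 4299 to 6227 CPM in control and 4511 to 9151 CPM in model. The summed acinar markers were at 55777 to 92618 CPM in control and 47827 to 50991 CPM in model, and the summed islet markers at 58828 to 80826 and 38838 to 52091 CPM. Most of the islet sum was miR-375-3p, and miR-7a-5p overlapped between groups, as did the acinar miR-217-5p. The endothelial miR-126a-3p was at 34716 to 43604 CPM in control and 26567 to 33034 CPM in model. The summed red cell, smooth muscle and skeletal muscle markers overlapped, as did the liver marker. The smooth muscle miR-145a-5p was at 1253 to 1990 CPM in control and 2106 to 2574 CPM in model, without overlap. The part of these markers in the differences reported here was not tested. CPM is a row's count relative to its library total, scaled by edgeR's TMM factors. In bulk tissue, fewer cells of a type and less RNA per cell cannot be told apart.

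The sequences that carry most of the counts are shown first, 5′ to 3′ as the table gives them, with the last 3 bases in capitals. Of the 71 mature sequences, 5 ended in CCA (7.04%), against 6 of the 527 known miRNA rows with at least 30 counts (1.14%). Predicted miR87-3p, which is close to 2 of them in sequence, ended in CCG and is shown beside them.
predicted miR450-5p: aucucgcuggggccuCCA
predicted miR133-3p: aucucgguggaaccuCCA
predicted miR155-3p: ucccggguuucggcaCCA
predicted miR288-3p: acagugcacgugucuCCA
predicted miR87-3p: aucucggugggaccuCCG

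All of these were 18 nt long. The remaining row with this ending, predicted miR116-3p, was of the same length and differed from predicted miR133-3p at 1 position, from predicted miR87-3p at 1 and from predicted miR450-5p at 2. Predicted miR133-3p, miR116-3p and miR87-3p shared their seed with the known miR-678, and predicted miR155-3p shared its seed with miR-7003-3p. Predicted miR288-3p lay within the known hairpin Mir139, at chr7:101475385-101475402 on the plus strand (GRCm38.p6), whereas the table placed it on chromosome 3. Predicted miR155-3p matched 9 annotated genes exactly, none of them on chromosome 4, where the table placed it. The files used here hold no nuclear tRNA sequences, so no row was assigned to a tRNA, and the CCA ending is a description only.

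The 4 rows with this ending outside a known hairpin held 72.8% of all counts in the 71 rows. Predicted miR450-5p alone ranked 48th among all rows of the table and predicted miR133-3p 65th. The 3 most abundant rows held 71.9% of the counts and the first 8 held 87.5%. Most others were far less abundant: 42 rows averaged at least 10 CPM and 12 at least 100 CPM.

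**Figure D1:**
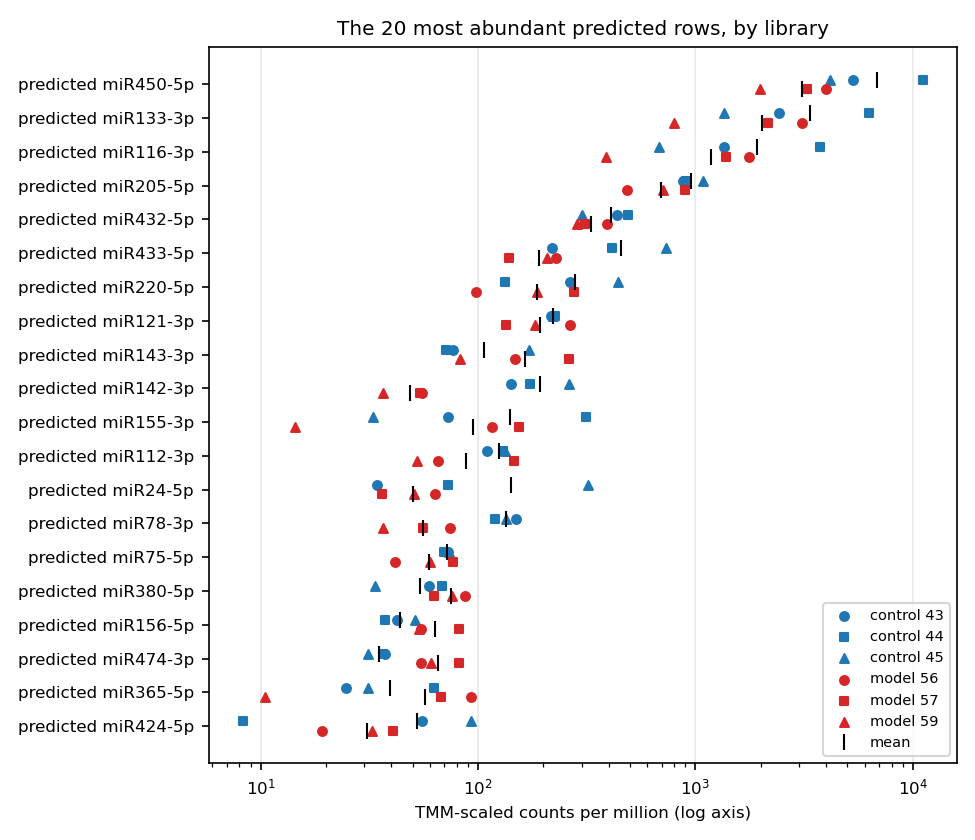
TMM-scaled CPM (log axis) of the 20 most abundant predicted rows, with 1 point per library (blue, control; red, model) and a black tick at each group mean. The groups are apart for predicted miR450-5p, miR142-3p and miR78-3p, with control higher, and for predicted miR156-5p and miR474-3p, with model higher.

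Predicted miR450-5p stood at 5328, 11132 and 4157 CPM in control libraries 43, 44 and 45 and at 3988, 3250 and 1990 CPM in model libraries 56, 57 and 59. Every control library was above every model library, and control 44 was the highest. The log2 fold change, −1.16 (edgeR adjusted p = 0.161, SE 0.42), did not pass the threshold of 0.05. It was −0.64 without control 44 and −0.41 with the authors' library totals.

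Predicted miR133-3p stood at 2411, 6308 and 1355 CPM in control and 3102, 2157 and 800 CPM in model. The groups overlapped, with control 44 again the highest library and model 59 the lowest. The log2 fold change was −0.73 (edgeR adjusted p = 0.586, SE 0.66), and without control 44 it was 0.09. Predicted miR116-3p had the same order of libraries at its extremes, with a log2 fold change of −0.71 that was 0.19 without control 44 and 0.01 when libraries were scaled by the authors' totals.

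Predicted miR155-3p ranged from 33.0 to 314 CPM in control and from 14.3 to 155 CPM in model. Predicted miR288-3p was far lower, at 3.85, 11.2 and 5.40 CPM in control and 2.22, 3.68 and 3.89 CPM in model. All 5 rows ending in CCA were highest in control 44, and 4 of the 5 were lowest in model 59. Control 44 was the highest library for 14 of the 52 tested rows, these 5 included, and control 45 for 15. How many of the 52 were lowest in model 59 was not counted. For the 5 rows the coefficient of variation had a median of 77.7% in control and 57.3% in model.

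As a share of all counts in a library, the rows ending in CCA took 0.906, 1.85 and 0.535% in control and 0.972, 0.753 and 0.371% in model. The range within control was wider than the distance between the group means, 1.10% and 0.699%. The other 66 rows together took 0.331, 0.324 and 0.412% in control and 0.301, 0.344 and 0.292% in model, a much narrower span. All 71 rows took 1.24, 2.18 and 0.946% in control (1.45 ± 0.643%, SD, n = 3) and 1.27, 1.10 and 0.663% in model (1.01 ± 0.314%, SD, n = 3), and the groups overlapped. The difference between the means, −0.443 percentage points, was −0.081 without control 44. Within the counts of the 71 rows, the share ending in CCA differed by −4.65 percentage points, by 2.11 without control 44 and by 0.885 without model 59. Against the authors' own library totals the 71 rows took 0.117, 0.190 and 0.0679% in control and 0.130, 0.149 and 0.0788% in model. Control 44 also had the highest level of the liver marker miR-122-5p, at 345 CPM against 40.8 to 126 CPM in the other libraries. Its part in these shares was not tested.

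**Figure D2:**
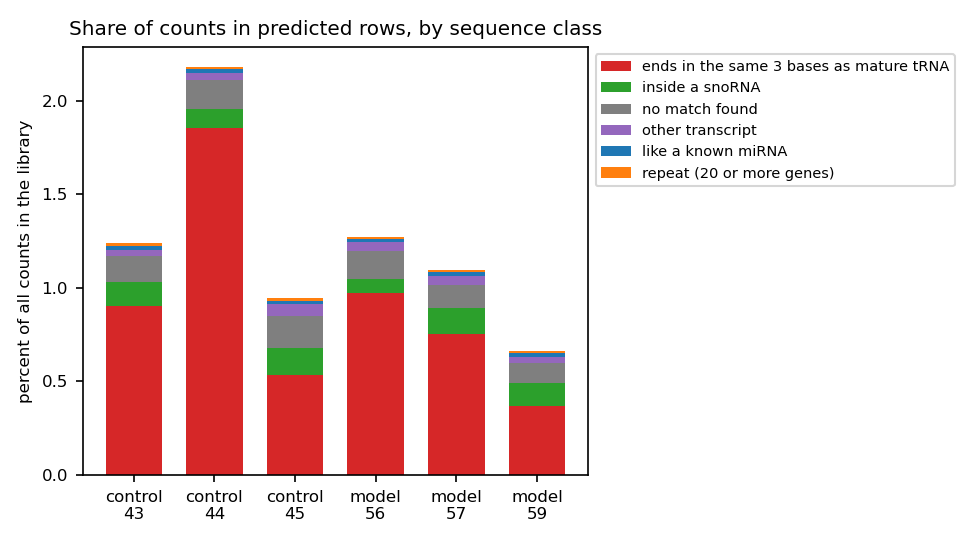
Percent of all counts of each library (vertical axis, 3 control and 3 model libraries side by side) that fell in the 71 predicted rows, stacked by sequence class. The rows with the tRNA-type ending make up most of every bar, from 0.370% of counts in model 59 to 1.85% in control 44, while the other classes vary less.

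The 71 rows were short. Their median length was 19 nt against 22 nt for the 527 known rows, and 30 of them (42.3%) were exactly 18 nt, the lower edge of the gel cut of 18 to 30 nt. No known row with at least 30 counts was that short. Rows under 21 nt numbered 47 and held 87.3% of the counts, rows of 21 to 24 nt numbered 21 and held 10.8%, and the 3 rows of 25 nt held 1.91%. Among the known rows, 93.4% were 21 to 24 nt long. The mean length weighted by counts was 18.4 to 19.3 nt over the 6 libraries, and 20.3 to 21.01 nt without the rows ending in CCA, against 22.0 nt for known rows in each library. The share of counts in rows under 21 nt was 87.3 ± 6.54% in control and 83.5 ± 7.35% in model (SD, n = 3), a difference within the spread.

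**Figure D3:**
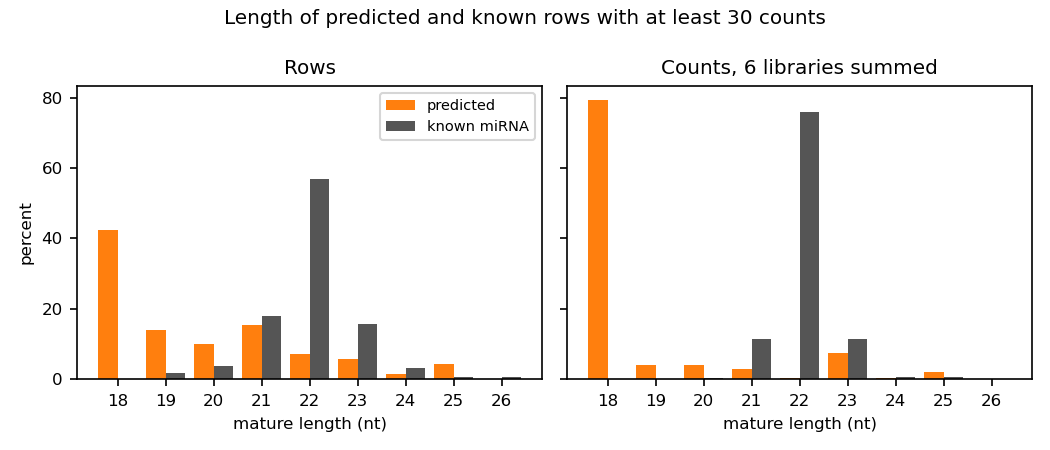
Mature length in nt (horizontal axis) of the 71 predicted rows (orange) and the 527 known miRNA rows (grey) with at least 30 counts, as percent of rows (left) and percent of counts summed over 6 libraries (right). Predicted rows peak at 18 nt with 42.3% of rows and 79.3% of counts, and known rows peak at 22 nt.

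By chromosome, the table placed the rows on 17 chromosomes and gave none for 5. Chromosome 7 held 39.2% of the counts, 97.9% of them predicted miR450-5p. Chromosome 3 held 21.3%, nearly all predicted miR133-3p, and the rows without a chromosome held 7.47%, mostly predicted miR205-5p. The chromosome 7 share was 43.3, 44.5 and 38.3% in control and 35.0, 33.1 and 36.6% in model, without overlap. The difference between group means, model minus control, was −7.12 percentage points, and −8.99 to −5.89 when 1 library was left out. Nearly all of this share is predicted miR450-5p. Such shares of the counts in predicted rows were compared for all 17 chromosomes and for the rows without one. The groups were also apart for the share of chromosome X, lower in model, and of chromosomes 4, 12 and 16, higher in model. Chromosomes X, 12 and 16 held 1 row each: predicted miR142-3p, miR202-3p and miR249-5p. In CPM, predicted miR202-3p and miR249-5p overlapped between groups. Their log2 fold changes were −0.30 (SE 0.33) and −0.33 (SE 0.39), so their higher shares were not higher levels. The table gives no start or end for any row.

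The deposited hairpins differed from those of known rows mainly in arm position, arm number and length. The mature sequence sat at the very end of the deposited hairpin in 71 of 71 predicted rows and in 24 of 527 known rows. Arm position and hairpin length depend on where a hairpin was trimmed for deposit, and the part of trimming was not tested. Of 65 predicted hairpins, 14 had a second arm anywhere in the table and 6 had both arms at 30 or more counts, against 171 of 356 known hairpins. Known rows were also more abundant: 200 of 447 tested known rows reached 100 CPM, and 12 of 52 tested predicted rows. The part of abundance in arm number was not tested. The deposited hairpins had a median of 59 nt, against 84 nt for known rows. Folded with ViennaRNA, they had a median minimum free energy of −39.8 kcal/mol per 100 nt, against −43.2, and a median of 70% of mature bases paired, against 83.3%. Free energy varied by class. The class medians were −20.7 for rows resembling known miRNAs, −29.0 for the tRNA-type ending and −35.8 for snoRNAs. They were −43.0 for both repeats and rows without a match, close to the known median, and −53.4 for other transcripts.

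**Figure D4:**
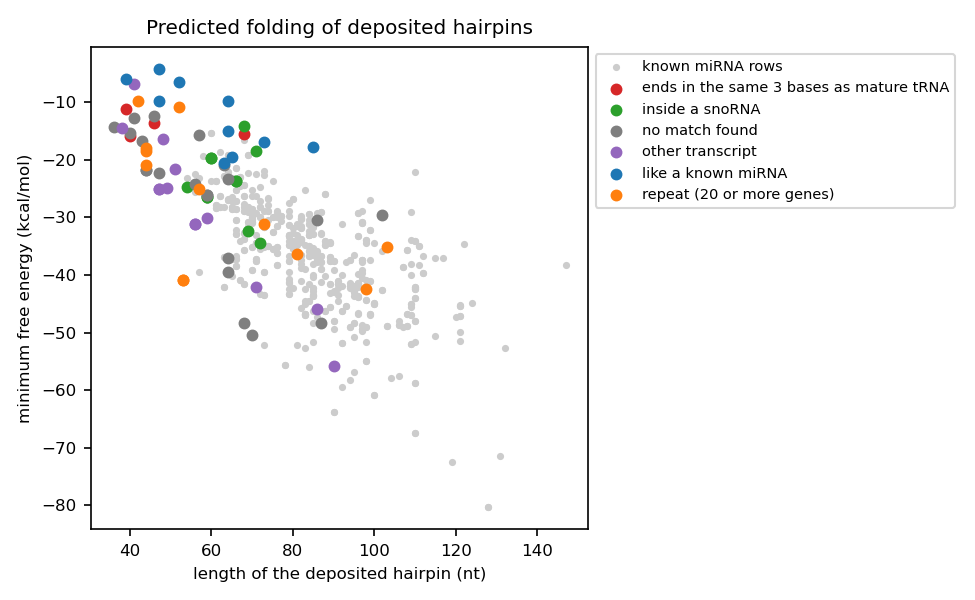
Minimum free energy in kcal/mol (vertical axis) against length in nt (horizontal axis) of the hairpin deposited for each of the 71 predicted rows, coloured by sequence class, with known miRNA rows in grey. Most predicted hairpins are shorter than the known median of 84 nt, and the classes overlap in free energy.

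A second group of 11 rows matched annotated snoRNAs exactly and held 9.74% of the counts. In 10 of the 11 the whole deposited hairpin lay inside the snoRNA gene, on the chromosome the table gave. A selection is shown with the seed in capitals: 3 rows placed in named snoRNA genes or host genes, and both arms of 1 hairpin.
predicted miR205-5p: gGAGGGAAcgcagucugagugga
predicted miR220-5p: uGCUAUGAugaaggcuauguuggua
predicted miR389-3p: gCCGAAAGcaugggaacagcc
predicted miR156-5p: cAGCAGAGgaaauccagacgggu
predicted miR156-3p: uGUCUCUAcaacucugccaca

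Predicted miR205-5p was the 3′ end of U3 snoRNA, whose genes Rnu3b1 to Rnu3b4 lie on chromosome 11, for example at chr11:87443429-87443451 on the plus strand (GRCm38) in Rnu3b1. The match ended at the last base of that gene model. It stood at 875, 909 and 1082 CPM in control and 487, 897 and 706 CPM in model, so that the groups overlapped only through model 57. For this row the log2 fold change was −0.46 (edgeR adjusted p = 0.358, SE 0.27). It shared its seed with miR-7041-5p.

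Predicted miR220-5p, at 25 nt the most abundant of the longest rows, lay at chr1:161035401-161035425 on the plus strand in the snoRNA model Gm26224, inside Gas5, a non-coding gene that hosts several snoRNAs. It ranged from 133 to 440 CPM in control and from 98.2 to 276 CPM in model. Predicted miR389-3p was the 3′ end of Snora65, at chr2:32963400-32963420 on the plus strand inside the ribosomal protein gene Rpl12, with 34.7 to 56.5 CPM in control and 26.4 to 46.9 CPM in model. Both overlapped between groups.

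Both arms reached 30 counts in 2 snoRNA hairpins. Predicted miR164-5p and miR164-3p lay in Gm24451 within Nop56, itself a protein of the snoRNA particle, and had 75 and 32 counts in all. Predicted miR156-5p and miR156-3p lay at chr4:123293214-123293236 and chr4:123293259-123293279 on the plus strand in Gm22154. Their hairpin is shown with the arms in capitals.
predicted miR156 hairpin: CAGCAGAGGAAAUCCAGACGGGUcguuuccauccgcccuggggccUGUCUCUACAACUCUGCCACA

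The fold changes of its arms had opposite signs. Predicted miR156-5p stood at 42.4, 37.5 and 51.6 CPM in control and 54.8, 81.6 and 53.8 CPM in model, each model library above each control library. Its log2 fold change was 0.54 (edgeR adjusted p = 0.281, SE 0.27), and 0.34 without model 57. Predicted miR156-3p stood at 12.7, 13.1 and 42.6 CPM in control and 7.41, 7.67 and 18.5 CPM in model, with a log2 fold change of −1.002 (edgeR adjusted p = 0.366, SE 0.60). Neither passed the threshold, and the difference between the arms was not tested.

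A further 10 rows resembled known miRNAs: they lay inside a known hairpin or differed at 2 positions or fewer from a known mature sequence, aligned at base 1. They held 1.66% of the counts. Examples are set beside the known miRNA, with the seed in capitals.
let-7b-5p: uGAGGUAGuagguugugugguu
predicted miR75-5p: gGAGGUAGuagguugugu
predicted miR293-5p: uGAGGUAGuggguugugu
miR-125a-5p: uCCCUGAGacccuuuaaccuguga
predicted miR68-3p: uCCCUGAGacccuuuaac
miR-29b-2-5p: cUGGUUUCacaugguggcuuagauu
predicted miR84-3p: cUGGUUUCacaugguggc

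Substitutions are written with the known base first and positions counted from the 5′ end. Against let-7b-5p, a member of the let-7 family of differentiation-linked miRNAs, predicted miR75-5p carried U1G and predicted miR293-5p carried A10G. However, predicted miR293-5p also matched a transcript of Elp3 exactly. Its whole deposited hairpin lay inside that transcript, on chromosome 14, the chromosome the table gave. Predicted miR202-3p carried A17U and C19U against miR-22-3p, predicted miR249-5p carried U16G and C18U against miR-27a-3p, and predicted miR242-3p carried C10A and C20U against miR-23a-3p. Each of these held between 0.0206 and 0.257% of the counts of its known relative. Predicted miR68-3p was identical to the first 18 bases of miR-125a-5p, at chr17:17830817-17830834 on the plus strand in Mir125a (GRCm38.p6), and held 1.02% of its counts.

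Predicted miR84-3p was the exception in level. It was identical to the first 18 bases of miR-29b-2-5p, at chr1:195037050-195037067 on the plus strand in Mir29b-2 (GRCm38.p6), although the table put it on chromosome 8. It had 287 counts in all, 2208% of those of the known row. Its levels of 16.9, 22.9 and 16.2 CPM in control and 17.8, 13.5 and 23.0 CPM in model overlapped, with a log2 fold change of −0.04 (edgeR adjusted p = 0.964, SE 0.32).

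Predicted miR75-5p stood at 73.2, 70.1 and 73.8 CPM in control and 41.5, 76.7 and 60.4 CPM in model, while let-7b-5p averaged 26151 CPM. The log2 fold changes were −0.28 (SE 0.28) and −0.35 (SE 0.11) respectively. Predicted miR293-5p stood at 27.7, 32.6 and 34.8 CPM in control and 7.41, 21.5 and 13.5 CPM in model, without overlap. Its log2 fold change was −1.16 (edgeR adjusted p = 0.147, SE 0.40).

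Another 12 rows matched at least 20 annotated genes each and were classed as repeats, with 1.00% of the counts. Of these, 4 lay in the Mir466k hairpin and 2 in Mir3473b. The remaining classes were 13 rows that matched another transcript (3.55%) and 21 with no exact match in the annotation searched (11.3%). Many of these were rich in guanine and cytosine: 20 of the 71 rows had at least 80% GC, against 1 of 527 known rows. The most abundant in other transcripts was predicted miR143-3p, at chr4:46344274-46344291 on the plus strand in the single exon of Foxe1 (GRCm38), a forkhead transcription factor gene. It ranged from 71.6 to 171 CPM in control and from 82.5 to 263 CPM in model.

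Across the whole table, edgeR tested 499 rows, 52 of them among the 71. The other 19 were too low for the filter, so counts over the 52 are not counts over all members. At an adjusted p under 0.05, 1 of the 52 changed (1.92%), beside a background of 1.2% of all rows tested (1% higher and 0.2% lower in model). This row was the only 1 called lower in the whole table, so the 0.2% is the row itself. Unadjusted p-values under 0.05 were found for 2 rows with the higher level in model (background 11.4%) and 6 with the lower level (background 12.4%). The groups did not overlap for 11 of the 52, or 21.2%, against 31.1% of all rows. Of these, 4 were higher in model (background 14.4%) and 7 lower (background 16.6%). DESeq2 called 3 of 70 predicted rows (4.29%, background 5.25%) and upper quartile factors in edgeR 4 of 52 (7.69%, background 9.02%). Without a filter, edgeR called 7 of 71 (9.86%, background 4.1% of all 1414 rows, low ones included).

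The median log2 fold change of the 52 rows was −0.44, with 14 above 0 and 38 below, and that of all 499 rows was 0.00. By class the medians were −0.72 for the tRNA-type ending, −0.46 for snoRNAs, −0.44 for other transcripts, −0.35 for repeats, −0.32 for rows like known miRNAs and −0.31 for rows without a match. These values depend on scaling. With the authors' library totals the median of all rows moved to 0.79 and that of the predicted rows to 0.42, with 37 above 0 and 14 below. That setting called 7 of the 53 predicted rows it tested (13.2%), beside a background of 24.5% of all rows tested under it. Of these, 6 were higher (background 24.1%) and 1 lower (background 0.398%, or 2 rows with this one included). With total counts alone the medians were 0.29 and −0.13. Without control 44 the predicted rows had a median of −0.18, and without model 59 of −0.24.

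**Figure D5:**
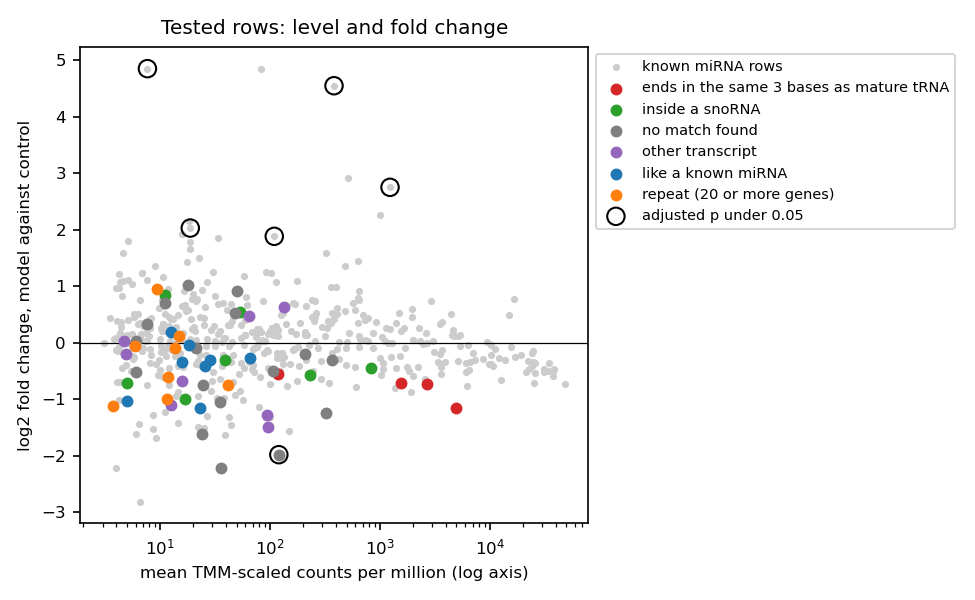
Log2 fold change of model against control (vertical axis) against mean TMM-scaled CPM (log axis) for the 499 tested rows, with known rows in grey and predicted rows coloured by sequence class. Open circles mark the 6 rows with an adjusted p under 0.05, of which 1, predicted miR142-3p, is a predicted row, at −1.98.

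The one row past the threshold was predicted miR142-3p, 19 nt long and 89.5% GC, placed by the table on chromosome X. It had no exact match in the annotation searched. Its mature sequence, with the seed in capitals, and its hairpin, with the mature arm in capitals, are shown with 3 other GC-rich rows that are described with it.
predicted miR142-3p: cGGGCGUGggggugggggg
predicted miR142 hairpin: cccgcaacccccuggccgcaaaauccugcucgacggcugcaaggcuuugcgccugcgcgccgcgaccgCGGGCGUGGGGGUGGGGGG
predicted miR15-5p: gGGGGCCGgggguggggu
predicted miR78-3p: cGGGGUCCggugcggagagc
predicted miR433-5p: cCCGGGGAgcccggcgggc

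Predicted miR142-3p stood at 142, 173 and 263 CPM in control and 55.2, 54.3 and 36.5 CPM in model. The lowest control library was more than 2 times the highest model library. It fell by 1.98 on the log2 scale (edgeR adjusted p = 0.0273, SE 0.32), lower in 3 of 3 model libraries. The call held under all 8 alternatives that kept every library, with a log2 fold change of −1.15 under the authors' totals. It was lost in 5 of the 6 fits that left out 1 library: the adjusted p was 0.0757 without control 44, 0.0605 without control 45, 0.121 without model 56, 0.117 without model 57 and 0.162 without model 59. Without control 43 it was 0.0482. Over those 6 fits the log2 fold change ran from −2.18 to −1.72, so it stayed near its reported size.

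The rows next to it in adjusted p were also rich in GC, at 88.9% and 80%. Predicted miR15-5p stood at 32.7, 43.8 and 99.5 CPM in control and 9.63, 21.2 and 6.87 CPM in model, without overlap. Its log2 fold change was −2.21 (edgeR adjusted p = 0.0802, SE 0.57), and it shared its seed with the 5p arms of miR-128. Predicted miR78-3p stood at 150, 120 and 134 CPM in control and 74.5, 55.8 and 36.5 CPM in model, again without overlap, with a log2 fold change of −1.28 (edgeR adjusted p = 0.0731, SE 0.30). It matched 3 short gene models typed as miRNA, Gm23935, Gm24245 and Gm24270, on chromosomes other than the one in the table. DESeq2 called both of these rows and predicted miR142-3p.

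Predicted miR433-5p stood at 219, 414 and 732 CPM in control and 229, 138 and 207 CPM in model, with a log2 fold change of −1.25 (edgeR adjusted p = 0.157, SE 0.45) that was −0.75 without control 45. The shorter predicted miR365-5p lies wholly within it, and both share their seed with miR-7059-5p. For predicted miR365-5p the log2 fold change was 0.53 (SE 0.74). Predicted miR24-5p, which is 100% GC and matches a transcript of the RNA-binding protein gene Hnrnpd, stood at 34.3, 72.5 and 321 CPM in control and 63.7, 36.2 and 50.8 CPM in model. Its log2 fold change of −1.50 (edgeR adjusted p = 0.298, SE 0.78) came with 1 high library, control 45, and was −0.11 without it. Predicted miR361-3p likewise had 1 high library, control 44 at 71.6 CPM, and a log2 fold change of −1.62 (SE 0.75) that was −0.66 without that library. Rows of at least 80% GC took 0.0849, 0.108 and 0.176% of all counts in control and 0.0890, 0.0935 and 0.0606% in model, an overlap.

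In the other direction, predicted miR474-3p stood at 37.4, 36.5 and 31.2 CPM in control and 54.8, 81.9 and 60.7 CPM in model. Every model library was above every control library, and the control libraries lay close together. Its log2 fold change was 0.91 (edgeR adjusted p = 0.0899, SE 0.25). It was 21 nt long, matched no annotated transcript, and its opposite arm was also present, with 92 counts against 842. The hairpin is shown because both arms were found, with the arms in capitals.
predicted miR474 hairpin: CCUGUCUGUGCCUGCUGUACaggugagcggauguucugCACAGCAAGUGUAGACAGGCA

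Folded with ViennaRNA, this hairpin of 59 nt reached −26.1 kcal/mol. The table placed it on chromosome 1. The 5p arm ranged from 0.974 to 12.6 CPM in control and from 3.34 to 7.98 CPM in model, with a log2 fold change of 0.03 (SE 0.75).

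Predicted miR171-3p, in the snoRNA model Gm27991 on chromosome 7, and predicted miR217-5p, without a match, were also higher in every model library. The first stood at 10.4, 6.33 and 7.20 CPM in control and 12.2, 12.6 and 18.2 CPM in model, with a log2 fold change of 0.84 (edgeR adjusted p = 0.209, SE 0.36). The second stood at 8.09, 7.79 and 9.59 CPM in control and 13.3, 17.8 and 10.5 CPM in model, with a log2 fold change of 0.71 (edgeR adjusted p = 0.255, SE 0.34). Predicted miR374-3p had the highest log2 fold change of the named rows, 1.02 (SE 1.02), but model 56 alone was high, at 58.2 CPM, and without it the value was −0.61.

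Of the 2 remaining rows among the 8 most abundant, predicted miR432-5p stood at 436, 490 and 300 CPM in control and 391, 312 and 286 CPM in model, with overlap. Predicted miR121-3p was nearly level in control, at 217, 226 and 222 CPM, and more spread in model, at 264, 134 and 183 CPM. Neither matched an annotated transcript. Their log2 fold changes were −0.31 (SE 0.27) and −0.20 (SE 0.29).

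Replicates of the predicted rows were farther apart than those of known miRNAs. Among tested rows the median coefficient of variation was 44.9% in control and 37.6% in model for the 52 predicted rows, and 24.3% and 20.1% for 447 known rows. Abundant rows showed the same order: at 100 CPM or more it was 53.4% and 40.7% for 12 predicted rows, and 19.2% and 14.4% for 200 known rows. Of the 71 rows, 66 were counted in every library and 5 had a 0 in at least 1. A 0 allows up to 3 counts, or 0.998 to 1.54 CPM before TMM scaling, and this floor covers counting error only. The rows just inside the limit of 30 counts were predicted miR311-3p and miR428-3p with 33 each and predicted miR164-3p with 32, and those just outside were predicted miR118-5p with 29, miR42-3p with 26 and miR61-3p with 25.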

How the data were processed

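The authors deposited 1 table with a row per mature arm, giving raw read counts and RPM (reads scaled to a library total) for each of the 6 libraries, per the file headers. The submitters' processing notes name Bowtie2 and GRCm38.p6 without a role. The prediction program, and whether molecular identifiers were used to collapse reads, are not given in the sources used here. PCR copies, if kept, would make counts look too precise. The totals used for RPM were recovered from the ratio of count to RPM in rows of at least 100 counts. They ran from 22055639 to 27876715, and what they count is not given.

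Counts of all 1414 rows were fitted with edgeR 4.0.16 in R 4.3.3 (filterByExpr defaults, TMM, robust quasi-likelihood test, two-sided, Benjamini-Hochberg adjustment over 499 rows, threshold 0.05), after a check on simulated data. The simulation gave every row the same dispersion. It does not show how the test behaves on rows as variable as the predicted ones. DESeq2 1.42.0, other scalings, no filter and each library left out were alternatives. Pairs of replicates differed well beyond sampling noise (chi-square per degree of freedom 33.1 to 138 over the 71 rows), and none repeated another. Shares are descriptions without a test.

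Mature sequences were matched exactly to GENCODE M21 transcripts (GRCm38) and RefSeq hairpins (GRCm38.p6), and each row was put in the first class that applied: repeat, known miRNA, snoRNA, CCA ending, other transcript, no match. Deposited hairpins were folded with ViennaRNA 2.7.2. Known mature sequences and hairpins were those of RefSeq together with those the authors deposited for the known miRNA rows. The members, lists and classes were chosen with earlier results of these data known. Rows were named if past the threshold, among the 8 most abundant, among the 4 highest or 4 lowest fold changes at 10 CPM or more, ending in CCA, among the 6 most abundant with a known seed, the most abundant of a length class, or next to the limit of 30 counts. Predicted miR78-3p, miR75-5p, miR293-5p, miR84-3p, miR68-3p, miR156-5p, miR389-3p and other rows given as relatives or class examples were named after their values were seen.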

Additional observations from a re-analysis of the deposited data

How the results depend on the processing

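The count of predicted rows called was 1 in the reported fit. It was 4 with upper quartile factors, 7 with the authors' totals (6 higher), 7 with no filter and 3 with DESeq2, settings under which 45, 123, 58 and 31 rows of the whole table were called against 6, and 0 to 1 when 1 library was left out. It stayed at 1 with RLE factors, total counts alone, repeated sequences kept once, a total of at least 100 and, added after the data were seen, edgeR's newer dispersion method. The differences in shares moved by less than 1 SD of the replicates under the alternatives run, but the SD is large: the difference in the CCA share changed sign without control 44 (2.11 percentage points) and without model 59 (0.885), and that in rows of 25 nt ran from −0.847 to 0.928 with 1 library left out. The alternatives for chromosome 7 were added after the data were seen.

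With the authors' totals the log2 fold change turned positive for predicted miR116-3p (0.010), miR205-5p (0.39), miR432-5p (0.42), miR220-5p (0.32), miR121-3p (0.54), miR155-3p (0.22), miR75-5p (0.54), miR84-3p (0.73), miR68-3p (0.42) and miR389-3p (0.49). With total counts alone it did so for predicted miR121-3p (0.10), miR75-5p (0.017), miR84-3p (0.26) and miR389-3p (0.013). With 1 library left out, the value ran from −1.14 to 0.086 for predicted miR133-3p and from −1.14 to 0.19 for predicted miR116-3p, both positive without control 44. It ran from −1.05 to 0.82 for predicted miR155-3p, positive without control 44 or model 59, and from −0.22 to 0.17 for predicted miR84-3p, positive without control 44, model 56 or model 57. It ran from −0.44 to 0.037 for predicted miR121-3p, positive without model 57, and from −0.61 to 2.12 for predicted miR374-3p, negative without model 56. The cause was not tested. No paired analysis was possible because control and model libraries share no replicate number. Of the 71 rows, 19 were too low for the filter and were not tested.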
